A study of Mus musculus with 6 samples.

Results

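The miRNAs described here lie in the Dlk1-Dio3 imprinted region of mouse chromosome 12 but outside its best known clusters, the Rtl1 antisense group and the Mirg group. They were chosen by name. From hairpins on the Meg3 side came mmu-miR-770-3p, mmu-miR-673-5p, mmu-miR-493-3p, mmu-miR-337-5p, mmu-miR-337-3p, mmu-miR-540-3p and mmu-miR-665-3p. From hairpins within Rian came mmu-miR-341-3p and mmu-miR-370-3p, and from a hairpin by Dio3os mmu-miR-1247-5p. Of these 10 names, 9 had a row among the 1013 distinct sequences of the deposited table, and 8 had enough reads to be among the 639 sequences tested. The exception without a row was miR-341-3p, although another sequence of its hairpin was counted, and the exception without enough reads was miR-493-3p.

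The small RNA came from prefrontal cortex of C57BL/6 males, labelled as 30 weeks old. One group, PS-NP, had been given polystyrene nanoplastics (PS NPs) by daily oral gavage at 50 mg per kg over 6 months, and the control group water (0 mg per kg), starting at an age of 5 weeks. Each group had 3 libraries, with 7726735, 8440666 and 9905745 miRNA reads in PS-NP libraries 1 to 3 and 9445598, 6170649 and 6441891 in control libraries 1 to 3. The labels do not give the particle size, and nothing in them ties a library to an animal of its own, so that p-values here reflect the spread between libraries, which may be technical.

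The Dlk1-Dio3 region is imprinted: its protein-coding genes Dlk1, Rtl1 and Dio3 are read mainly from the paternal chromosome, and its long noncoding RNAs Meg3, the Rtl1 antisense RNA, Rian and Mirg from the maternal one. Those noncoding RNAs carry snoRNAs and a large collection of miRNA hairpins, many of them expressed in brain and placenta. A mature miRNA guides Argonaute to mRNAs that pair with its seed, bases 2 to 8, and each hairpin can release a 5p and a 3p arm with different seeds.

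The mature sequences are shown because each name stands for its own seed, and the order is that of the hairpins along the chromosome. They are RefSeq sequences of build GRCm38.p6, written 5′ to 3′, with the seed in capitals.
mmu-miR-770-3p: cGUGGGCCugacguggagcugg
mmu-miR-673-5p: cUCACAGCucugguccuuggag
mmu-miR-493-3p: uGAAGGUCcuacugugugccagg
mmu-miR-337-5p: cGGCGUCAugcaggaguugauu
mmu-miR-337-3p: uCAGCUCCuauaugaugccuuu
mmu-miR-540-3p: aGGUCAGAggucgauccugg
mmu-miR-665-3p: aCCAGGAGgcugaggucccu
mmu-miR-341-3p: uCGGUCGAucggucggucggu
mmu-miR-370-3p: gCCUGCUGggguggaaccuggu
mmu-miR-1247-5p: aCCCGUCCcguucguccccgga
No pair among these 10 had the same seed. The sequence counted in the deposited table started at the same base as the RefSeq one for all 9 that had a row, so the seeds were those shown, and it differed at the 3′ end for 3 of them. The counted miR-673-5p was 1 base shorter, miR-540-3p 2 bases longer and miR-665-3p 3 bases longer. Among all listed sequences, only miR-6915-5p shared the seed of miR-540-3p and only miR-7033-5p that of miR-665-3p, each at an average of 0.0754 CPM over the 6 libraries, far below either. CPM are counts per 1e+06 reads of a library, after scaling the libraries to each other by TMM. The other 7 counted seeds were shared with no listed sequence.

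The hairpins on the Meg3 side spanned 22.7 kb on the plus strand (GRCm38). Mir770 (chr12:109563692-109563785) lay within Meg3, in a stretch annotated as exon in at least 1 of its transcripts, and Mir673 (chr12:109571990-109572080) began 264 bases past the annotated end of Meg3. Mir493 (chr12:109580233-109580315), Mir337 (chr12:109585789-109585885), Mir540 (chr12:109586080-109586146) and Mir665 (chr12:109586314-109586407) followed, with no annotated host gene on their strand. Mir341 (chr12:109611500-109611595) and Mir370 (chr12:109618258-109618336) lay in introns of Rian. Mir1247 (chr12:110278048-110278129) stood 659.7 kb beyond Mir370 on the minus strand. In the GENCODE annotation it lay in an exon of Dio3os, which runs away from the thyroid-hormone-inactivating deiodinase gene Dio3. The RefSeq Dio3os spans 110275384 to 110278068. Most of the hairpin, and all of mature miR-1247-5p (110278094 to 110278115), lay outside that span.

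The hairpin of miR-337 is shown because both of its arms belong to the set; the counted arms are in capitals, 5p first.
Mir337: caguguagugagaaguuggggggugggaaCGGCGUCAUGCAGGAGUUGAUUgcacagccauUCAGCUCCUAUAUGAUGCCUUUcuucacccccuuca
The hairpin of miR-770 is shown because its arms were counted at nearly equal levels; both are in capitals.
Mir770: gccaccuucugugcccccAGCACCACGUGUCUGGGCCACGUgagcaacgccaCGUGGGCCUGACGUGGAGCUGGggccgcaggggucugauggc
The hairpin of miR-341 is shown because the counted 3′ sequence, in capitals, is not the RefSeq mature one.
Mir341: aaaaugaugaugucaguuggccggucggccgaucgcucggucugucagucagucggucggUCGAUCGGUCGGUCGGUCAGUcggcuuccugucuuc
That sequence, listed as mir-341-p3, began 4 bases further along than miR-341-3p and shared 17 bases with it.
mir-341-p3: tCGATCGGtcggtcggtcagt
Its seed, again in capitals and here in the DNA letters of the table, differed from that of miR-341-3p and was shared with no other listed sequence. Since the name differed, mir-341-p3 was not counted as a member, and its values are given apart.

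The most abundant of the 9 was mmu-miR-370-3p, a miRNA reported in human liver cancer cells to repress CPT1A, an enzyme of mitochondrial fatty acid import. It measured 1808, 1467 and 1939 CPM in PS-NP libraries 1 to 3, against 1912, 2006 and 2081 CPM in control libraries 1 to 3. The lowest value was that of PS-NP library 2, and the highest PS-NP value exceeded the lowest control. The means were 1738 ± 244 CPM with PS-NP and 2000.0 ± 84.5 CPM in controls (SD, n = 3 each). The log2 difference, PS-NP minus control, was −0.20 (95% interval −0.57 to 0.17; adjusted p = 0.906). This difference did not pass the test, and bulk cortex cannot tell fewer cells of a type from less RNA per cell.

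Next stood mmu-miR-337-5p, at 893, 1062 and 972 CPM in PS-NP libraries 1 to 3 and 917, 1022 and 933 CPM in control libraries 1 to 3. It was the steadiest of the set: its highest library held 1.19 times its lowest, and the groups overlapped almost fully. The log2 difference was 0.028 (95% interval −0.32 to 0.38; adjusted p = 0.981). Its opposite arm, mmu-miR-337-3p, had only 24, 87 and 106 reads in the PS-NP libraries and 36, 69 and 39 in the controls. These correspond to 3.60, 9.68 and 9.60 CPM with PS-NP and 4.16, 10.1 and 6.29 CPM in controls. Library 1 of each group was the lowest of its group, so that the spread lay within the groups, and the log2 difference was 0.17 (95% interval −0.89 to 1.23; adjusted p = 0.952). Because both arms come from 1 hairpin, they are not independent observations.

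**Figure D1:**
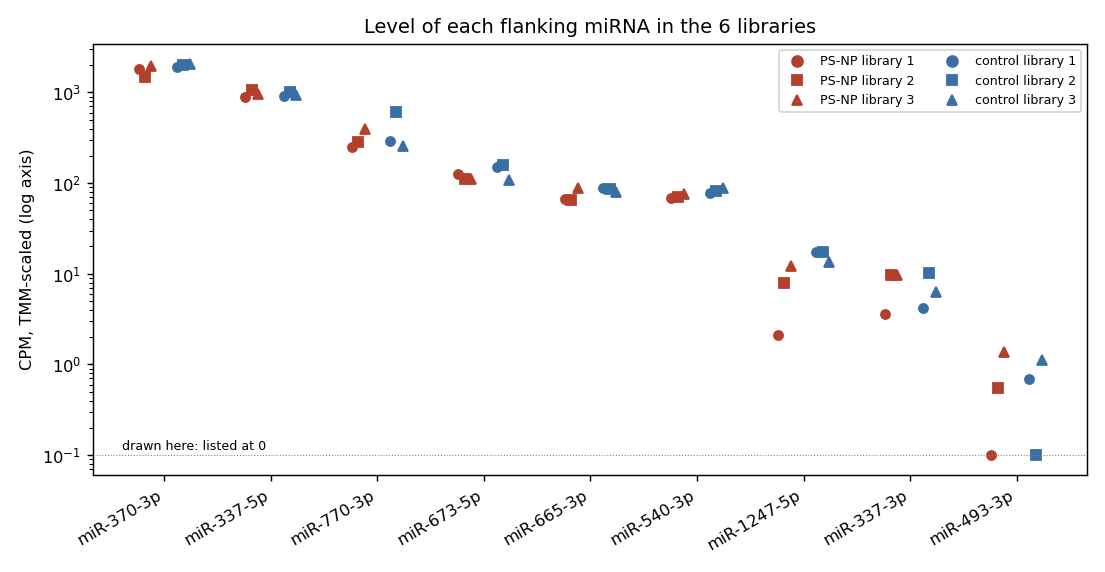
CPM on a log axis for the 9 flanking miRNAs that had a row, in order of level; each point is 1 library, with PS-NP (red) left of control (blue). The levels run from 2081 CPM for miR-370-3p in control library 3 down to 0 for miR-493-3p, and miR-1247-5p is the one at a low level whose PS-NP points all lie under its controls.

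From the hairpin annotated within Meg3, mmu-miR-770-3p measured 253, 285 and 392 CPM in the PS-NP libraries and 291, 604 and 253 CPM in the controls. Control library 2 stood far above the other 5, which overlapped. The opposite arm miR-770-5p followed it, at 260.0, 358 and 314 CPM with PS-NP and 322, 709 and 301 CPM in controls, again highest in control library 2. The log2 difference was −0.30 for miR-770-3p (95% interval −1.07 to 0.46; adjusted p = 0.906) and −0.51 for miR-770-5p (95% interval −1.26 to 0.23). Without control library 2 they were 0.18 for miR-770-3p and −0.010 for miR-770-5p. The miRNA next along, mmu-miR-673-5p, measured 126, 110.1 and 111 CPM with PS-NP and 150.1, 159 and 108 CPM in controls. The lowest value was that of control library 3, and the log2 difference was −0.26 (95% interval −0.72 to 0.20; adjusted p = 0.906).

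Of the hairpin Mir493, whose human counterpart has been reported to limit liver metastasis of colon cancer cells, at least 97.3% of the reads in each library were of the 5p arm. The 3p arm, mmu-miR-493-3p, was listed with 0, 5 and 15 reads in the PS-NP libraries and 6, 0 and 7 reads in the controls. Values under 5 are rare in the table, so that a listed 0 may stand for a few reads, and no test was made. The 5p arm measured 33.8, 45.6 and 50.0 CPM with PS-NP and 41.3, 57.9 and 40.8 CPM in controls, with overlapping groups.

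The neighbours miR-540-3p and miR-665-3p had similar levels. Of these, mmu-miR-540-3p measured 69.2, 71.0 and 76.0 CPM with PS-NP and 78.6, 81.0 and 88.0 CPM in controls. All 3 PS-NP libraries lay under all 3 controls, by a narrow margin. Its means were 72.0 ± 3.52 CPM with PS-NP and 82.6 ± 4.89 CPM in controls (SD, n = 3 each), and the log2 difference was −0.20 (95% interval −0.59 to 0.19). The other, mmu-miR-665-3p, measured 67.5, 64.8 and 88.0 CPM with PS-NP and 89.3, 86.4 and 79.2 CPM in controls. PS-NP library 3 stood among the controls, and the log2 difference was −0.21 (95% interval −0.65 to 0.23). The adjusted p was 0.906 for both.

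The largest difference of the set was that of mmu-miR-1247-5p, from the Dio3 end, a miRNA that in human chondrocytes has been linked to the cartilage factor SOX9. It had 14, 71 and 134 reads in the PS-NP libraries and 150, 120 and 83 in the controls, or 2.10, 7.90 and 12.1 CPM with PS-NP and 17.3, 17.5 and 13.4 CPM in controls. All PS-NP libraries lay under all controls once scaled, although PS-NP library 3 and control library 3 came close, and the means were 7.38 ± 5.04 CPM with PS-NP and 16.1 ± 2.35 CPM in controls (SD, n = 3 each). The level was 0.464 times that of controls (95% interval 0.208 to 1.04), a log2 difference of −1.11 that did not pass (unadjusted p = 0.0593; adjusted p = 0.906). Without PS-NP library 1, the lowest, the log2 difference was −0.68, and without PS-NP library 3 it was −1.68.

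No member passed the test over all 639 sequences (edgeR quasi-likelihood test with Benjamini-Hochberg adjustment), and neither did any other sequence: 0% were called at an adjusted p of 0.05, with 2.35% at an unadjusted p under 0.05 (1.41% higher and 0.939% lower), by which 0 members were called. DESeq2 also called 0, with 15 sequences at an unadjusted p under 0.05, as many as edgeR. The groups did not overlap for miR-540-3p and miR-1247-5p, both lower with PS-NP, while over all tested sequences 9.55% did not overlap, 5.01% being higher and 4.54% lower. Of the 8 tested members, 6 had a negative log2 difference, where 52.1% of all tested sequences did, and the median was −0.21, against −0.017 for all. These 8 are the ones that passed the filter on low values, not the whole set.

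Base composition moved with these differences. Across the 639 sequences the log2 difference ran against GC content (Spearman's rho −0.467, a description across sequences that share the same 6 libraries). The tested members had a median GC content of 62.3%, against 50.0% for all tested sequences, with miR-770-3p and miR-1247-5p at 72.7%. When the trend of each library with GC content was removed, 4 members lay below 0 and 4 above, with a median log2 difference of 0.015 for the members and for all tested sequences alike. The log2 difference became 0.038 for miR-370-3p, 0.078 for miR-770-3p, −0.0068 for miR-540-3p, −0.051 for miR-665-3p and −0.15 for miR-673-5p. That of miR-1247-5p stayed the lowest of the members at −0.82 (unadjusted p = 0.129). The trend was fitted over all tested sequences, members included, so its removal also takes out any group difference that runs with GC content. These values therefore cannot tell where the members' differences come from. The source of the GC trend was not tested.

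**Figure D2:**
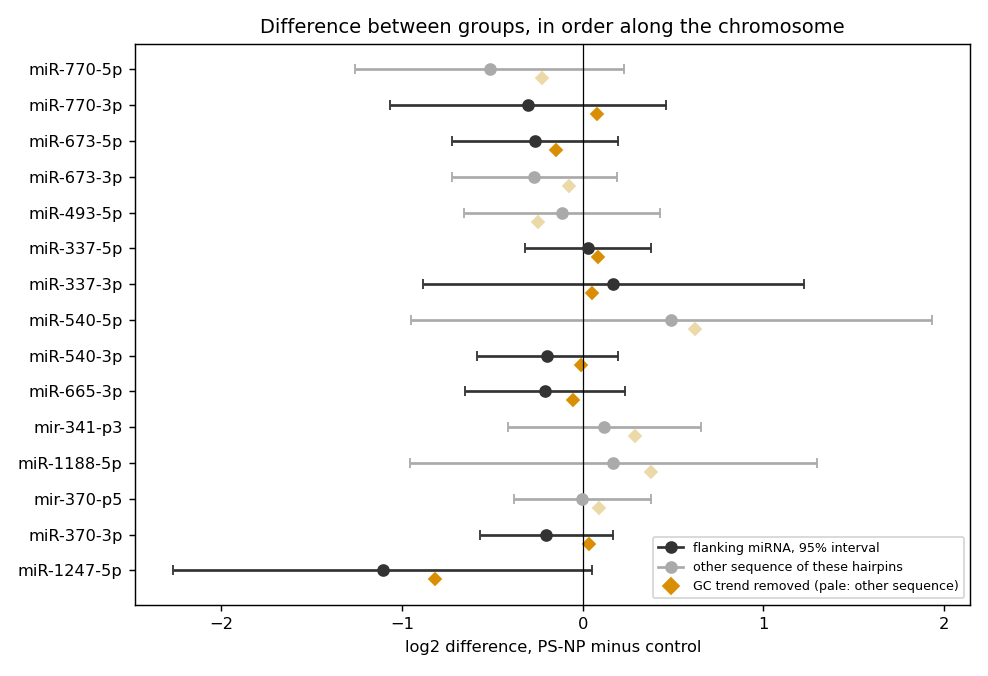
Log2 difference, PS-NP minus control, for the tested sequences of these hairpins and of the adjacent Mir1188, in chromosome order, with the 95% interval from edgeR (circles) and the value with the trend on GC content taken out (diamonds). All intervals cross 0, and the diamonds of miR-370-3p and miR-770-3p lie at 0.038 and 0.078, right of their circles at −0.20 and −0.30.

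The order of levels was nearly fixed from library to library. miR-370-3p, miR-337-5p, miR-770-3p and miR-673-5p held ranks 1 to 4 in every library, and the lowest library of each exceeded the highest of the next. miR-665-3p and miR-540-3p did not differ beyond their spread, with miR-665-3p higher in 3 of the 6 libraries. miR-1247-5p and miR-337-3p also overlapped, with miR-1247-5p higher in 4 of 6. Reads of a miRNA are whole molecules of nearly equal length, but ligation during library preparation favours some sequences, so levels of different miRNAs are compared here only as read counts per library. Over all 639 tested sequences, miR-370-3p stood at the 91.7th percentile of mean CPM, miR-337-5p at the 87.8th and miR-337-3p at the 30.5th.

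The arms of a hairpin are measured in the same library, so their ratio does not depend on depth or scaling. For 6 hairpins both arms had reads in more than 1 library, and the arm that dominated was the same in all libraries except for Mir770. Mir341 was left out, since its 5′ sequence, listed as mir-341-p5, had 5 reads in PS-NP library 2 and was listed at 0 in the other 5. Mir337 gave 99.0% to 99.6% of its reads as miR-337-5p, and Mir540 gave 1.45% to 6.98% as the 5p arm. Mir673 gave 76.6% to 84.6% as miR-673-5p, and Mir370 gave 12.2% to 19.0% as a 5′ sequence listed as mir-370-p5, which differs from the RefSeq 5p arm. Mir770 was near balance: the 5p share was 50.7%, 55.7% and 44.5% in PS-NP libraries 1 to 3 and 52.6%, 54.0% and 54.3% in control libraries 1 to 3. The controls lay within the range of the PS-NP libraries, and the log2 ratio of 5p to 3p differed by −0.19 (exact permutation test, two-sided, p = 0.4).

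**Figure D3:**
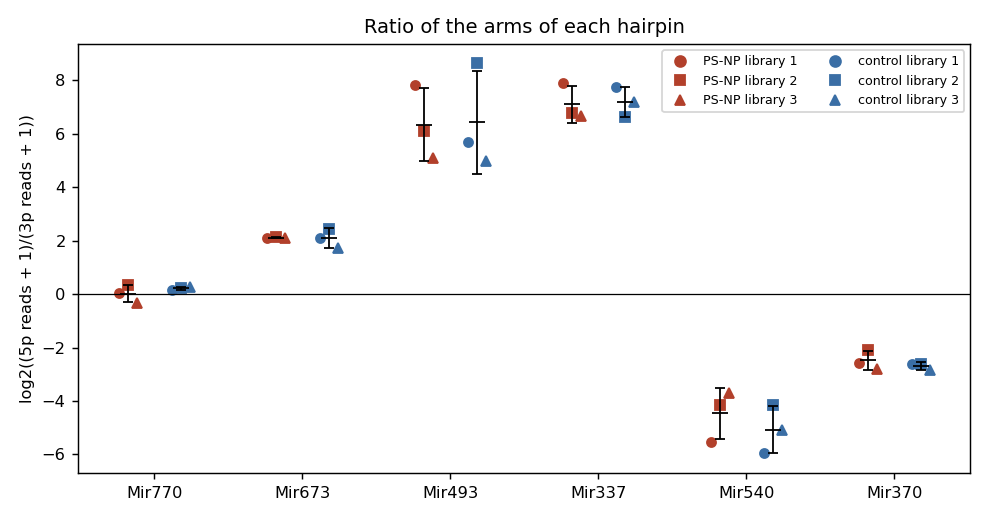
Log2 ratio of 5p to 3p reads, with 1 read added to each, for the 6 hairpins whose arms both had reads in more than 1 library; each point is 1 library, PS-NP (red) left of control (blue), and the bar is the mean with its SD. Mir770 lies near 0, Mir493 and Mir337 above 4 and Mir540 below −3, with overlapping groups in each.

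No arm ratio passed the test between groups, and the groups overlapped for each hairpin. The difference of the log2 ratio, PS-NP minus control, was 0.61 for Mir540, 0.21 for Mir370, 0.022 for Mir673, −0.085 for Mir337 and −0.090 for Mir493. These sizes rested on single libraries: the difference for Mir540 was 0.16 without control library 1 and 0.23 without PS-NP library 3, but 1.14 without PS-NP library 1 and 1.06 without control library 2. For Mir370 it was 0.012 without PS-NP library 2, 0.13 without control library 3 and 0.36 without PS-NP library 3, and for Mir770 leaving out PS-NP library 2 gave −0.35 and leaving out PS-NP library 3 gave −0.024. The lowest exact permutation p was 0.4, and 0.8 after adjustment over the 6 hairpins, where 3 libraries against 3 cannot go below 0.1. The ratio of Mir493 rests on a 3p arm listed at 0 in PS-NP library 1 and control library 2, and so depends on the added read.

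Some sequences of these hairpins varied together between libraries of the same group. The counted 3′ sequence of Mir341, mir-341-p3, measured 70.2, 104 and 108 CPM in PS-NP libraries 1 to 3 and 68.8, 98.4 and 92.6 CPM in control libraries 1 to 3. The minor arm miR-540-5p measured 1.35, 3.90 and 5.70 CPM with PS-NP and 1.16, 4.39 and 2.42 CPM in controls. From Mir1188, a hairpin close to Mir341 in Rian, miR-1188-5p measured 2.55, 4.45 and 6.25 CPM with PS-NP and 2.43, 6.43 and 3.06 CPM in controls. In these 3, and in both arms of Mir337, PS-NP library 1 and control library 1 were the lowest of the 6. That held for 5 of the 15 tested sequences of these hairpins and Mir1188, against 13.8% of all 639, and the pattern, like the naming of mir-341-p3, mir-370-p5 and miR-1188-5p, was chosen after the values were seen and was not tested.

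Summed marker lists for choroid plexus and for pituitary and hypothalamus were lowest in the same libraries, and the cells these reads came from are not known. The summed choroid plexus markers miR-204-5p, miR-211-5p and miR-449a-5p, 3 of 3 with a row, measured 2056, 7218 and 4278 CPM in PS-NP libraries 1 to 3 and 1771, 5619 and 3259.9 CPM in control libraries 1 to 3. The summed pituitary and hypothalamus markers miR-7a-5p and miR-375-3p, 2 of 2 with a row, measured 441, 780.3 and 1411 CPM with PS-NP and 548, 1034 and 714 CPM in controls. The neuronal markers miR-124-3p, miR-9-5p, miR-128-3p and miR-138-5p summed to between 149910 and 206066 CPM with PS-NP and between 175973 and 186834 CPM in controls, so that the labelled neural tissue was present in each library. The hepatocyte marker miR-122-5p was at most 8.25 CPM. The endothelial markers miR-126a-3p and miR-126a-5p, 2 of 2 with a row, were the only list whose groups did not overlap. Their sums were 1990.4 to 2534 CPM with PS-NP and 1486 to 1967 CPM in controls. Summed lists for oligodendrocytes, microglia and leukocytes, erythroid cells and muscle overlapped. Over all tested sequences, taken singly, the groups did not overlap for 9.55%. The part of these markers in the members' values was not tested. With PS-NP library 1 and control library 1 both left out, a choice made after the data were seen, 6 members had a negative log2 difference. That of miR-1247-5p was then −0.59. The choroid plexus sum ranged from 3259.9 to 7218 CPM over the remaining libraries, so this is no test of the part of the markers.

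**Figure D4:**
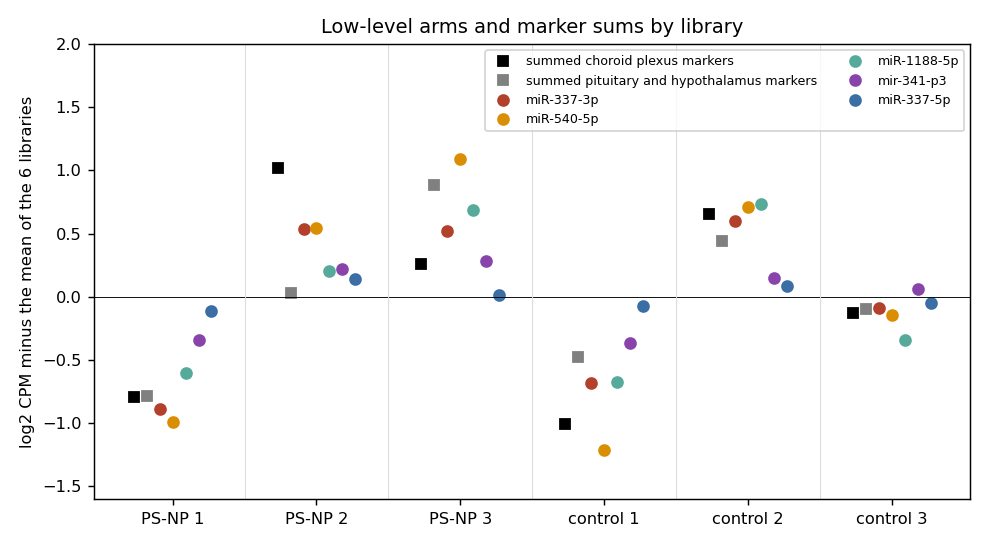
Log2 CPM of 5 sequences of these hairpins (circles) and of 2 marker sums (squares) in each library, each minus its own mean over the 6 libraries. PS-NP library 1 and control library 1 lie under 0 for all 7, while miR-337-5p, in blue, stays close to 0 in all libraries.

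The 9 counted miRNAs together took 0.278%, 0.328% and 0.402% of the reads of PS-NP libraries 1 to 3, and 0.317%, 0.442% and 0.343% of those of control libraries 1 to 3. The groups overlapped, and miR-370-3p alone made up 47.7% to 58.4% of the sum. The Rtl1 antisense miRNAs, led by the neuronal miR-127-3p at 60373 ± 11312 CPM with PS-NP and 59162 ± 6069.8 CPM in controls (SD, n = 3 each), were far more abundant. The flanking miRNAs summed to 3.16%, 3.87% and 3.40% of the Rtl1 antisense sum in the PS-NP libraries and 3.34%, 4.07% and 3.77% in the controls, again with overlap.

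Set against the Mirg group, they summed to 15.4%, 14.4% and 15.9% in the PS-NP libraries and 16.3%, 17.8% and 16.4% in the controls. Here the groups did not overlap, but without miR-370-3p they did, at 6.75%, 7.56% and 7.34% with PS-NP and 7.28%, 8.86% and 6.83% in controls. No test was made of these sums. The Mirg members had a lower GC content, with a median of 45.5%, and the Rtl1 antisense members one of 53.5%. The sums were not recomputed with the GC trend removed.

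Values on both sides of 0 were also found in the neighbouring groups. Of 10 tested Rtl1 antisense miRNAs, 7 had a positive and 3 a negative log2 difference, with a median of 0.057. Of 58 tested Mirg miRNAs 31 were positive and 27 negative, with a median of 0.032. With the GC trend removed, 8 Rtl1 antisense miRNAs were positive and 2 negative, with a median of 0.17. The Mirg miRNAs were then 34 positive and 24 negative, with a median of 0.018. None passed the adjusted test. At an unadjusted p under 0.05 there were 0 in the Rtl1 antisense group, and in the Mirg group 1 in each direction: miR-411-5p at 984 ± 127 CPM with PS-NP and 758.7 ± 55.3 CPM in controls, and miR-667-3p at 628 ± 49.0 CPM with PS-NP and 859 ± 52.1 CPM in controls (SD, n = 3 each). In the Rtl1 antisense group the lowest p values belonged to miR-136-5p, with a log2 difference of 0.32 (SE 0.23), and miR-433-3p, with −0.29 (SE 0.21). miR-433-3p was highest in control library 2, as both arms of miR-770 were: it measured 4118, 4209 and 3859 CPM in the PS-NP libraries and 4775, 6440.4 and 3646 CPM in the controls. That library was also the highest for miR-673-5p, miR-337-3p and miR-1247-5p, but not for miR-370-3p, miR-337-5p, miR-540-3p or miR-665-3p. Outside the region it was the highest for miR-125b-1-3p, for example. This likeness was seen in the values, and its share over all tested sequences was not counted.

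**Figure D5:**
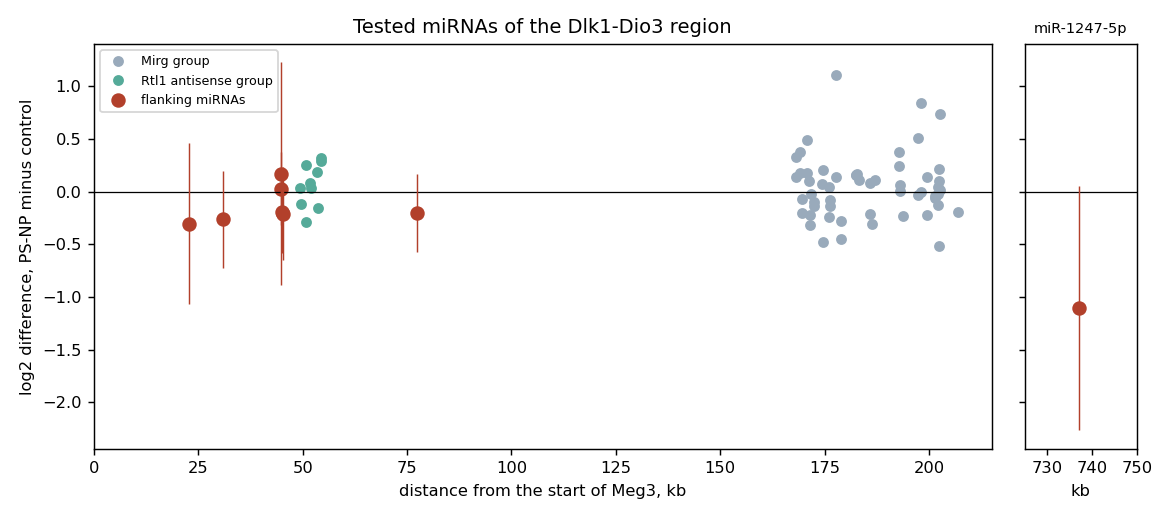
Log2 difference, PS-NP minus control, of the tested miRNAs of the Dlk1-Dio3 region with a RefSeq position, against the distance of the mature sequence from the start of Meg3 in kb, with a break before miR-1247-5p. The flanking miRNAs, drawn with 95% intervals, lie on both sides of the Rtl1 antisense group and at −1.11 at the Dio3 end, and the 55 Mirg points scatter around 0.

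The sequence whose level followed the summed flanking miRNAs most closely was miR-434-3p of the Rtl1 antisense group. Its log2 profile over the 6 libraries, after subtracting its mean, had a root mean square difference of 0.0573 from theirs. It measured 30899, 25936 and 31274 CPM in PS-NP libraries 1 to 3 and 31093, 35153 and 32088 CPM in control libraries 1 to 3. Next came miR-3078-5p at 0.0686 and miR-138-2-3p at 0.0731. With 6 libraries and 639 sequences to choose from, this likeness is a description only.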

How the data were processed

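Trizol-extracted RNA of prefrontal cortex was made into libraries with the TruSeq Small RNA kit, and the authors removed adapter dimers, low complexity reads, common RNA families and repeats with ACGT101-miR, per the labels' protocols. For the genome build, the miRBase release and the mapping settings: not given in the sources used here. In the protocols there is mention of further libraries, not analysed here. The deposited raw values are estimated counts per entry, with the reads of a sequence on several entries divided among them; the deposited norm values are a normalized signal, the raw value times 1 factor per library, used here as an alternative scaling only. A further 3 table lines, empty of values, were not analysed here.

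Entries with the same sequence were summed (1115 entries to 1013 sequences) and rounded to whole numbers; every member stood on 1 entry. The test planned for counts was used on these sums. Among 4231 values above 0 of sequences on 1 entry, 45 were under 5 and 256 equal to 5; of the 3981 that were whole (within 1e-06), 18 were under 5. The tests covered sequences reaching 10 reads in 3 or more libraries, with edgeR 4.0.16 (R 4.3.3; quasi-likelihood test, TMM factors 0.863 to 1.115, Benjamini-Hochberg adjustment over 639 sequences at 0.05), checked on simulated data; the common biological coefficient of variation was 30.6%. DESeq2 1.42.0, other scalings and filters, a correction for GC content (loess of each library's log2 deviation on GC, span 0.75), the replicate block and leaving out each library were alternatives. The rule named every member, the opposite arms, sequences sharing a seed, and set members of the neighbouring groups. Members and lists were chosen with earlier results of these data known.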

Additional observations from a re-analysis of the deposited data

How the results depend on the processing

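No sequence passed the adjusted threshold under any alternative run, and the smallest adjusted p of a member was 0.733. Sequences at an unadjusted p under 0.05 numbered 15, against 29 with no filter, 9 at a mean of at least 100 reads, and 6 to 38 as single libraries were left out (38 without PS-NP library 1, 6 without control library 1, 30 without control library 3). With the replicate block there were 32, and 0 at the adjusted threshold. The titles do not state that their numbers pair the libraries. Same-numbered libraries had deviations with r of 0.309, 0.152 and −0.171 across sequences, and differently numbered ones r from −0.438 to 0.395. Since the deviations within a group of 3 libraries are tied to each other, these values do not decide whether the libraries were paired.

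Of 126 alternative values of the members' log2 differences, 115 kept their direction. With the GC trend removed, miR-770-3p turned to 0.078 and miR-370-3p to 0.038. With the block and the GC trend removed together, miR-770-3p was at 0.095, miR-370-3p at 0.057 and miR-540-3p at 0.012. With single libraries left out, log2 differences lay between −0.54 and 0.18 for miR-770-3p, −0.057 and 0.088 for miR-337-5p and −0.094 and 0.56 for miR-337-3p, and the number of members below 0 from 5 to 8 of 8. The difference of the log2 arm ratio ran from −0.17 to 0.20 for Mir673, −0.83 to 1.01 for Mir493 and −0.48 to 0.19 for Mir337. The cause of these reversals was not tested. Leaving out PS-NP library 1 and control library 1 together was chosen after the data were seen and turned no member. A member under the 100-read mean has no value there. With 3 libraries a group, the median 95% interval of a sequence reached 0.64 log2 units to either side.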
